A study of Homo sapiens with 39 samples.

Results

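The difference between 2 lung cancer cell lines in their RNA response to 4 h of the compound DKFZ-608 was measured on 12 of the 39 arrays of the series. The 12 arrays were chosen by their labels as all arrays taken at 4 h, and they form 4 groups of 3. NCI-H209 (H209) is a line from a small cell lung carcinoma, a tumour of neuroendocrine type, and NCI-H838 (H838) is a line from a lung adenocarcinoma. In each line, 3 arrays came from cells given 100 nM DKFZ-608 in 6.9 µM cyclodextrin for 4 h, and 3 came from cells given cyclodextrin alone for 4 h, so the carrier is common to all 4 groups. The labels call DKFZ-608 a non-covalent inhibitor of TRXR1, the cytosolic thioredoxin reductase. The title of 1 treated H838 array lacks the compound's name, and its treatment label gave the group. The labels do not say whether the 3 arrays of a group came from separate cultures, so p-values measure the spread between these arrays, which may be technical. Each line is a single line of its tumour type, so a difference between them is one between H209 and H838.

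Thioredoxin reductase uses NADPH to keep thioredoxin reduced, and thioredoxin in turn reduces disulphides in many cell proteins. Cells answer to oxidised or damaged protein and to free zinc with separate gene programmes: HSF1 drives heat shock chaperones, MTF1 drives metallothioneins, NRF2 drives glutathione and thioredoxin genes, and ATF4 drives amino acid and stress genes. H838 is known for a mutated KEAP1, the protein that holds NRF2 in check.

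The deposited values are probe intensity on a linear scale, and effects are given as differences of log2 intensity. The effect in a line is treated minus vehicle, and the line difference is the effect in H838 minus the effect in H209. A gene was called where limma's Benjamini-Hochberg adjusted p over all 15072 genes was under 0.05. Array medians were alike, at 92.8 to 94.1, and correlations of log2 intensity within a group were 0.987 to 0.995. The marker genes of the 2 lines differed at 0 h. INSM1 and CHGA, a transcription factor and a granule protein of neuroendocrine cells, were lower in H838 by log2 differences of -5.27 and -3.91, and CAV1 and CD44 were higher in H838 by 3.92 and 4.12. EPCAM and KRT19, which mark epithelium, were higher in H209 than in H838, with differences of -5.11 and -4.70, so they do not mark the adenocarcinoma line here. Of 9 markers of other cell types, CD68 reached an intensity of 1381 and CD14 889.4 over the 12 arrays, and the others stayed at or below 136.2.

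The upstream sequences of 5 genes that rose in H209 alone are shown, one for each of 5 gene lists with several called members, to show where the motif of each list lies. Each is the 250 bases before the gene's start in RefSeq on GRCh38.p14, written 5′ to 3′ along the gene, with matches to the motif of its own list in capitals. The motifs were searched on both strands, and RefSeq promoters matched 11780 of the tested genes by symbol.

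For HSPA6 the capitals mark the heat shock element (GAA, TTC and GAA, each 2 bases after the one before), for MT2A the metal response element core (TGCACNC or TGCGCNC), for ATF3 the composite C/EBP-ATF element (TGATGNAA), for DUSP1 the cyclic AMP response element (TGACGTCA) and for GCLM the antioxidant response element (TGACNNNGC).
HSPA6, chr1:161524290-161524539, plus strand: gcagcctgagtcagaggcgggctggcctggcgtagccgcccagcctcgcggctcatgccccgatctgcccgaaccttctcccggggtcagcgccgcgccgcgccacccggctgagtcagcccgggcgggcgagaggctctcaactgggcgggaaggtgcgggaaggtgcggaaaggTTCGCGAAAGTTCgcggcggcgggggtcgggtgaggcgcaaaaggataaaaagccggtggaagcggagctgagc
MT2A, chr16:56608334-56608583, plus strand: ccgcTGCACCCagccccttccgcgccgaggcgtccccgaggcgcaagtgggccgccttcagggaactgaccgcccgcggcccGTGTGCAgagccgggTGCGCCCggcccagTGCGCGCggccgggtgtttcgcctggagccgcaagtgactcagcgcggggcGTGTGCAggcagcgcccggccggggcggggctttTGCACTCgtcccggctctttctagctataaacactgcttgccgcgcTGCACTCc
ATF3, chr1:212565157-212565406, plus strand: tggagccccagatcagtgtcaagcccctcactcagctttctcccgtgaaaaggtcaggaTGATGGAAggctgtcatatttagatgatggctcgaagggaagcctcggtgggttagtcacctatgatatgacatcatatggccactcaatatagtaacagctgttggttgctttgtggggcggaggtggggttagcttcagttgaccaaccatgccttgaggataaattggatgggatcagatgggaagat
DUSP1, chr5:172771196-172771445, minus strand: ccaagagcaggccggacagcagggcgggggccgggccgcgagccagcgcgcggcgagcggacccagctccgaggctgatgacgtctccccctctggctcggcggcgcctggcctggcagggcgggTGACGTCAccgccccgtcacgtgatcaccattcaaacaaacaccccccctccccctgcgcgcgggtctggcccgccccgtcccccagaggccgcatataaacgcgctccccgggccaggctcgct
GCLM, chr1:93909431-93909680, minus strand: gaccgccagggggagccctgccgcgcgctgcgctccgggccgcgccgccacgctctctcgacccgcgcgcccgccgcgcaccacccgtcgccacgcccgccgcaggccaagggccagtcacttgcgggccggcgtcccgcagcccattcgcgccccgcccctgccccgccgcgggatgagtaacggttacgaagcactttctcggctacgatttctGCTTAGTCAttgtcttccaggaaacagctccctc

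The heat shock element of HSPA6 ends 61 bases before the start. The MT2A window held 7 metal response cores. The heat shock element was found in 5 of the 14 called heat shock genes with a promoter (HSPA6, CHORDC1, DNAJB6, HSPA8 and SERPINH1), and in 0.439% of all 27305 promoters of the same length. The metal response core was found in 4 of 4 called metallothionein and zinc genes with a promoter and in 24.7% of all promoters. The composite element was in 2 of 12 called ATF4 genes and 3.19% of all promoters, and the cyclic AMP response element in 1 of 5 called feedback genes and 1.77% of all. The antioxidant element was in 1 of 3 called NRF2 genes and 11% of all. Motifs were also found outside their own list: the antioxidant element in 3 of 4 called metallothionein and zinc genes, and the metal response core in 5 of 12 called ATF4 genes and 3 of 5 called feedback genes. The window of FOS held no CArG box, the serum response motif, which was in 1.14% of all promoters and in 1 of 4 called immediate early genes, EGR1. Bases further upstream than 250 were not searched, so this does not show that FOS lacks the motif. A match is a run of letters and was not shown to be bound. The lists were drawn up around known programmes, so a share above that of all promoters is no result about DKFZ-608. List members that were not called were not counted apart, so the shares do not set called genes apart from the rest of their list.

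Heat shock, metallothionein and ATF4 genes were among those that rose in H209 within 4 h of DKFZ-608 (19 of 26, 9 of 12 and 22 of 37 tested), and 2 genes were called in H838. In H209, 195 genes rose (1.29% of those tested) and 64 fell (0.425%). In H838, 2 genes rose (0.0133%), the metallothioneins MT1F and MT1M, and 0 fell. An unadjusted limma p under 0.05, in either direction, was found for 347 of the 15072 genes, a smaller share than 0.05 itself. The line difference itself was past the threshold for 96 genes. The effect in H838 lay below that in H209 for 85 of them (0.564%) and above it for 11 (0.073%). With the replicate number as a block, H209 had 456 called genes in place of 259. Without treated replicate 2 of H209, it had 155. The 96 genes became 172 with the block, 62 with background subtracted and 14 in a fit of all 39 arrays, and H838 had 0 called genes on the linear scale or in the fit of all 39.

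Of the 96 genes, 83 rose in H209 and were not called in H838, 11 fell in H209 and were not called in H838, and 2, MT1M and MT1F, rose in both lines with the larger rise in H209. There were 0 genes called in H838 alone. The 83 genes rose in H209 by a median of 0.943 on the log2 scale, and their median effect in H838 was -0.036, where the median over all genes was -0.001. Their H838 effects ran from -0.192 to 0.671, and 28 had the sign of H209. A call that misses the threshold does not show that a gene was still, so the 95% interval of the H838 effect was read for each. It lay within a 1.5-fold change either way for 80 of the 83, and within 1.25-fold for 63. The share of all tested genes with such intervals was not computed, so these counts do not set the 83 apart from other genes. The exceptions to the wider bound were MT1E, MT1H and MT1X.

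Since the 83 genes were chosen on these same arrays, their values by array are a description. Over the 83 genes, the median log2 rise over the vehicle mean was 0.876, 0.960 and 0.990 in the 3 treated H209 arrays, and every one of the 83 genes was above its vehicle mean in each. In the 3 treated H838 arrays the median was -0.036, 0.041 and -0.076, with 28, 50 and 25 genes above the vehicle mean. Of the 96 genes, treated and vehicle arrays overlapped for 0 in H209 and for 84 in H838. Over all genes tested, the groups did not overlap for 15.1% in H209 and 7.61% in H838. The 8 genes whose treated H838 arrays were all above vehicle were 6 metallothioneins (MT1E, MT1F, MT1G, MT1H, MT1M and MT1X), MUC1 and FOXA2. In the other direction, 4 had treated H838 arrays all below vehicle, among them DUSP1, XBP1 and ANKRD37.

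**Figure D1:**
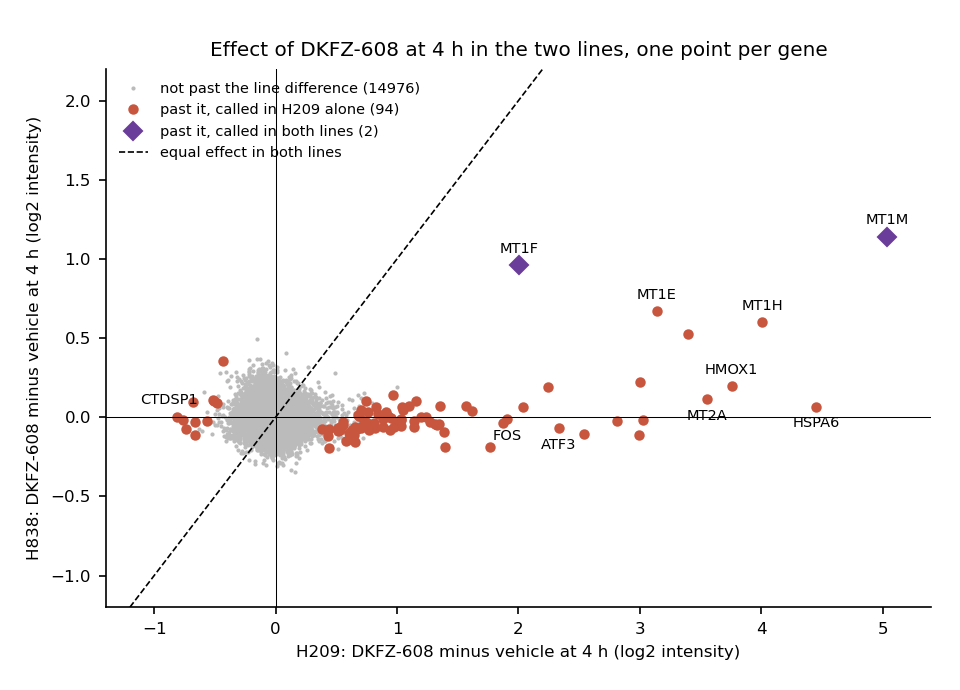
Effect of DKFZ-608 at 4 h in H209 (x axis) against H838 (y axis), both as treated minus vehicle in log2 intensity, with 1 point per gene and the dashed line marking equal effects. The 94 genes called in H209 alone have H838 effects from -0.192 to 0.671, with MT1E at the top of that range, and MT1M and MT1F lie at 1.14 and 0.96.

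Heat shock chaperones made up the longest list past the line difference. Of 26 tested members, 15 were called, all with the smaller effect in H838, and the list's median line difference was -0.72 against 0.007 over all genes. In H209 19 of the 26 rose, and in H838 0 were called. HSPA6, a strictly inducible HSP70 chaperone, read 85.85, 93.72 and 91.58 in the vehicle arrays of H209 and 1604, 2302 and 2088 in the treated ones. In H838 it read 101.6, 95.32 and 105.7 with vehicle and 98.9, 121.1 and 98.29 with DKFZ-608. The H209 groups were far apart and the H838 groups overlapped near the median of the table, 93.55. The H209 rise was 21.9-fold, and the line difference was -4.38 ± 0.16 (SE, n = 3 arrays per group; adjusted p = 1.33e-10).

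HSPA1A, the main inducible HSP70, rose from 1150, 1449 and 1324 to 8832, 11266 and 11258 in H209. In H838 it read 1804, 1745 and 2406 with vehicle and 1771, 2210 and 1540 with the compound. The line difference was -3.11 ± 0.20 (adjusted p = 8.21e-08), and the H838 groups overlapped. Its near-identical copy HSPA1B gave -2.84 ± 0.23, and HSPA7, a close relative of HSPA6, gave -3.04 ± 0.17. Probes of such copies can bind each other's RNA, so these were not separate measurements with certainty. A second, dimmer probe of HSPA6 gave -1.08 ± 0.20.

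DNAJB1, the HSP40 partner of HSP70, rose in H209 from 283.1, 301.7 and 276.3 to 1663, 1703 and 1645. Its H838 arrays overlapped, at 543.1, 554 and 618.7 with vehicle and 487.4, 601.4 and 511.8 with the compound. This gave a line difference of -2.65 ± 0.12 (adjusted p = 7.45e-10).

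BAG3, a co-chaperone of HSP70 in selective autophagy, rose in H209 from 92.43, 96.7 and 91.42 to 329.7, 420.9 and 407.2. In H838 it was at 900.3, 713.8 and 972.2 with vehicle and at 965.1, 1064 and 692.2 with DKFZ-608. Each H838 array, with or without the compound, was therefore above every treated H209 array. It had a line difference of -1.98 ± 0.20 (adjusted p = 2.27e-05).

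Metallothioneins, small cysteine-rich proteins that bind zinc and copper, included the 2 genes called in H838 at 4 h. Of 12 tested genes of the metallothionein and zinc list, 8 passed the line difference, each with the smaller effect in H838, and the median line difference was -2.26. In H209 9 rose, and in H838 2 rose at 4 h. MT1M read 101.6, 84.79 and 95.96 with vehicle and 2813, 3476 and 2976 with DKFZ-608 in H209, a 32.8-fold rise. In H838 it went from 180.6, 147.5 and 168.9 to 342.3, 473.8 and 297.5, a 2.21-fold rise (adjusted p = 0.00276). Treated arrays were above vehicle in both lines, and the line difference was -3.89 ± 0.20 (adjusted p = 3.10e-09).

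MT1F, another metallothionein, started higher in H209. It went from 3614, 3171 and 3366 to 12841, 14023 and 13825 in H209, a 4.01-fold rise. In H838 it went from 926.3, 950.7 and 834.6 to 1815, 1965 and 1515, a 1.94-fold rise (adjusted p = 0.000301). Groups did not overlap in either line, and the line difference of -1.04 ± 0.13 (adjusted p = 0.000290) was the smallest of the 8.

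MT2A, the most widely expressed isoform, rose in H209 from 1145, 934.4 and 926.9 to 11927, 12268 and 10998. In H838 it was at 4470, 3185 and 3135 with vehicle and at 4736, 3878 and 3101 with DKFZ-608. The H838 groups overlapped, between the vehicle and the treated level of H209. Between the lines the effects differed by -3.44 ± 0.21 (adjusted p = 2.98e-08).

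MT1H, MT1X, MT1G and MT1E had line differences of -3.41, -2.87, -2.78 and -2.47. Their H838 effects were 0.60, 0.53, 0.22 and 0.67, not called after adjustment, although all treated H838 arrays lay above all vehicle arrays for each. Second probes of MT1H and MT1E gave H838 effects of -0.05 and -0.07 beside H209 effects of 3.42 and 2.43, where the first probes gave 4.01 and 3.14 in H209. Metallothionein genes are near-identical, and the probes may share targets. SLC30A1, the zinc exporter of the plasma membrane, had a line difference of -2.05 ± 0.17, with a rise in H209 of 2.24 and an effect in H838 of 0.19 (95% interval -0.06 to 0.44).

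At 8 h, 3 genes rose in H838 (0.0199% of those tested), MT1M, MT1F and MT1E, and none fell (0%). That is a separate fit on 6 arrays. Of the 15072 genes, 259 had an unadjusted limma p under 0.05, also a smaller share than 0.05. The effects at 8 h were 1.94 for MT1M, 1.44 for MT1F and 1.10 for MT1E, beside 1.14, 0.96 and 0.67 at 4 h. The difference between times was not tested. Leaving out any 1 of the 3 vehicle arrays at 8 h left 0 called genes. The 83 genes had a median effect of 0.021 in H838 at 8 h.

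**Figure D2:**
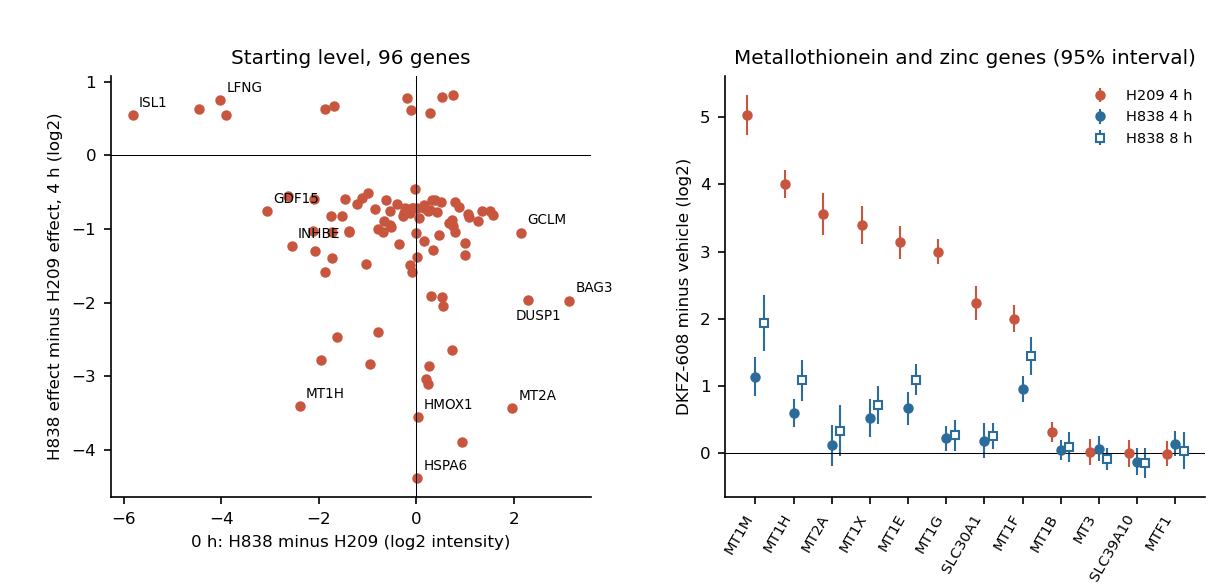
Left, line difference in effect at 4 h (y axis, log2 intensity) against the difference between the lines at 0 h, H838 minus H209 (x axis, log2 intensity), for the 96 called genes. Right, effect of DKFZ-608 in log2 intensity with 95% intervals for the 12 tested metallothionein and zinc genes in H209 at 4 h and in H838 at 4 h and 8 h.

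Among 32 tested NRF2 targets, 4 passed the line difference, each with the smaller effect in H838: HMOX1, GCLM, GCLC and NFE2L2. In H209 8 of the 32 rose, and in H838 0 were called. HMOX1, the haem-degrading enzyme haem oxygenase, read 374.2, 292.1 and 360.6 with vehicle and 5583, 4626 and 3762 with DKFZ-608 in H209. In H838 it read 315.2, 259.9 and 344.2 with vehicle and 368.2, 383.4 and 300 with the compound. At 0 h the lines differed by 0.03 (95% interval -0.18 to 0.24). Treated and vehicle arrays were apart in H209 and overlapped in H838. The H209 rise was 13.5-fold, the H838 effect was 0.20 (95% interval -0.11 to 0.50), and the line difference was -3.56 ± 0.20 (adjusted p = 1.21e-08).

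GCLM, the modifier subunit of the enzyme that makes the first bond of glutathione, started high in H838. H209 arrays went from 449.9, 450.8 and 454.9 to 993.5, 969.7 and 820.8, and H838 arrays were at 2175, 1766 and 1906 with vehicle and 2018, 2080 and 1678 with DKFZ-608. Every H838 array was above every treated H209 array. The line difference was -1.05 ± 0.14 (adjusted p = 0.000492), and at 0 h the level was 4.42-fold higher in H838. GCLC, the catalytic subunit of the same enzyme, started lower in H838 by -1.39 at 0 h and had a like line difference of -1.02 ± 0.14. Second, dimmer probes gave -0.52 ± 0.14 for GCLM and -0.60 ± 0.24 for GCLC, neither called over all probes. NFE2L2, which encodes NRF2 itself, gave -0.72 ± 0.13 with no called difference at 0 h (0.02, adjusted p = 0.854).

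For the gene of the target, the call turned on how the arrays were paired. TXNRD1 rose in H209 from 2032, 1617 and 1640 to 3268, 2708 and 2500 (adjusted p = 0.00284). In H838 it read 2095, 1634 and 1922 with vehicle and 1760, 1910 and 1875 with the compound, which overlapped. The line difference of -0.70 ± 0.16 missed the threshold (adjusted p = 0.0683). With the replicate number as a block it passed (adjusted p = 0.00388), and it passed in 3 of the 12 fits that left out 1 array. TXN, its substrate thioredoxin, gave -0.12 ± 0.12, and NQO1, a quinone reductase often used as an NRF2 readout, gave -0.13 ± 0.14. SRXN1, which repairs peroxiredoxins, gave -0.60 ± 0.25 (adjusted p = 0.605, and 0.0251 with the block), and SLC7A11, the cystine importer, -0.31 ± 0.11 (adjusted p = 0.414). None of the 34 tested genes in the list of thioredoxin and glutathione enzymes passed the line difference. That list leaves out TXNRD1, TXN, GCLM and GCLC, which were counted as NRF2 targets, and GCLM and GCLC did pass.

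The ATF4 programme, which answers to amino acid shortage and translation stress, had 13 of 37 tested members past the line difference, each with the smaller effect in H838, and a list median of -0.45. In H209 22 rose, and in H838 0 were called. ATF3, a stress-induced transcription factor, rose in H209 from 361.5, 418.7 and 449.2 to 2091, 2100 and 1972. In H838 it was at 263.3, 263.6 and 264.6 with vehicle and 228.3, 287.6 and 243.5 with DKFZ-608. The treated H838 arrays spread to both sides of the vehicle arrays, and the line difference was -2.40 ± 0.13 (adjusted p = 9.42e-09).

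DDIT3, the transcription factor CHOP, rose in H209 from 443.8, 514.1 and 558.2 to 1483, 1207 and 1177. H838 stayed low, at 145, 128.5 and 133.1 with vehicle and 130.2, 145 and 120.9 with the compound. The line difference was -1.39 ± 0.15 (adjusted p = 3.85e-05). STC2, a secreted glycoprotein, gave -1.58 ± 0.14, DDIT4, an inhibitor of mTORC1 signalling, -1.30 ± 0.14, and INHBE, an inhibin subunit, -1.24 ± 0.23. INHBE read 84.44 to 99.14 in the H838 arrays, around the table median of 93.55, and kept its call in 11 of the 12 fits that left out 1 array. The called members INHBE, CHAC1 and GDF15 were below the table median in H838 at 0 h. Of the 37 list members, 25 were lower in H838 at 0 h and 3 higher, where 30.1% of all genes tested were lower and 25.4% higher. The unfolded protein response of the endoplasmic reticulum had 1 of 20 members called, XBP1 at -0.74 ± 0.13.

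**Figure D3:**
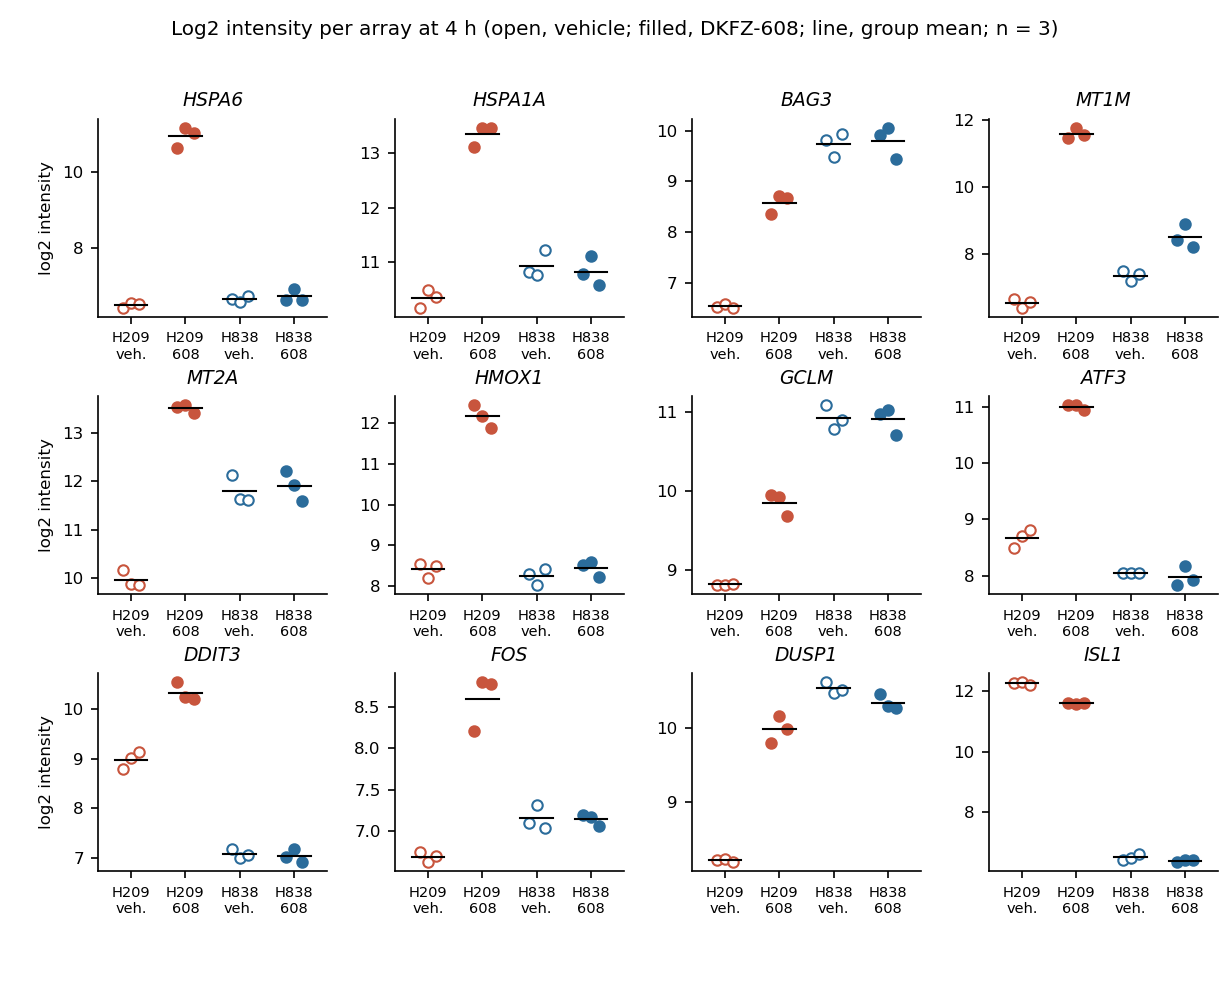
Log2 intensity (y axis) of 12 genes on each of the 12 arrays, by line and treatment (x axis, veh. for vehicle and 608 for DKFZ-608), with the mean of each group of 3 as a line. Treated H209 arrays stand apart from vehicle for every gene, while H838 groups overlap for all but MT1M and DUSP1.

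Immediate early genes and the feedback genes of MAP kinase signalling each had 5 members past the line difference, of 26 and 20 tested, each with the smaller effect in H838. FOS, a subunit of the AP-1 transcription factor, rose in H209 from 107.2, 98.64 and 103.5 to 297.4, 446 and 438. H838 read 137, 159.8 and 131.7 with vehicle and 146.7, 143.7 and 133.8 with DKFZ-608. The H838 groups overlapped, and the line difference was -1.92 ± 0.18 (adjusted p = 5.85e-06). EGR1, a zinc finger factor induced by growth signals, gave -1.58 ± 0.16, ZFP36, which destabilises AU-rich RNAs, -0.96 ± 0.11, and IER5 -0.81 ± 0.13. MCL1, an anti-apoptotic BCL2 relative, lay just inside the threshold at -0.76 ± 0.17 (adjusted p = 0.0483), and kept its call in 3 of the 12 fits that left out 1 array.

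DUSP1, the phosphatase that switches off p38 and JNK, rose in H209 from 298.5, 300 and 291.3 to 891, 1144 and 1011. In H838 it was at 1567, 1411 and 1459 with vehicle and at 1406, 1250 and 1234 with DKFZ-608. All treated H838 arrays were below all vehicle arrays and above all treated H209 arrays. The H838 effect was -0.19 (95% interval -0.38 to -0.003), which did not pass after adjustment (adjusted p = 1.00), and the line difference was -1.96 ± 0.13 (adjusted p = 6.54e-08). The other called feedback genes were RGS16 at -0.98, ERRFI1 at -0.89, SPRY4 at -0.78 and DUSP14 at -0.60.

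Other lists held 0 to 3 called genes. Among 25 apoptosis regulators 3 were called, MCL1, APAF1 and PMAIP1. PMAIP1, the BH3-only protein NOXA, gave -1.38 ± 0.11, rising in H209 from 295.4, 300.1 and 315.8 to 684.2, 842.5 and 764.4 against 393.6, 375.8 and 391.8 and then 353, 379.1 and 389.6 in H838. GADD45B, a stress sensor, gave -1.08, VEGFA, the angiogenic factor, -1.04, MXD1, a MAX partner that opposes MYC, -1.04, and SMAD7, an inhibitor of TGF-beta signalling, -0.72. ZFAND2A gave -1.06, GABARAPL1, an autophagosome protein, -0.76, and ANKRD37 -0.46, a call kept in 1 of the 12 fits that left out 1 array. HEY1, a Notch target repressor, gave -1.03. Of the 96 called genes, 65 stand in a list and 31 in none, and of all 15072 genes tested 491 stand in a list. The lists were drawn up with earlier results of these data known, so the 65 are no support for the lists. None was called among KLF factors, NF-kB, cholesterol, ribosome biogenesis, mitosis, epithelial and mesenchymal genes, or markers of other cell types.

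**Figure D4:**
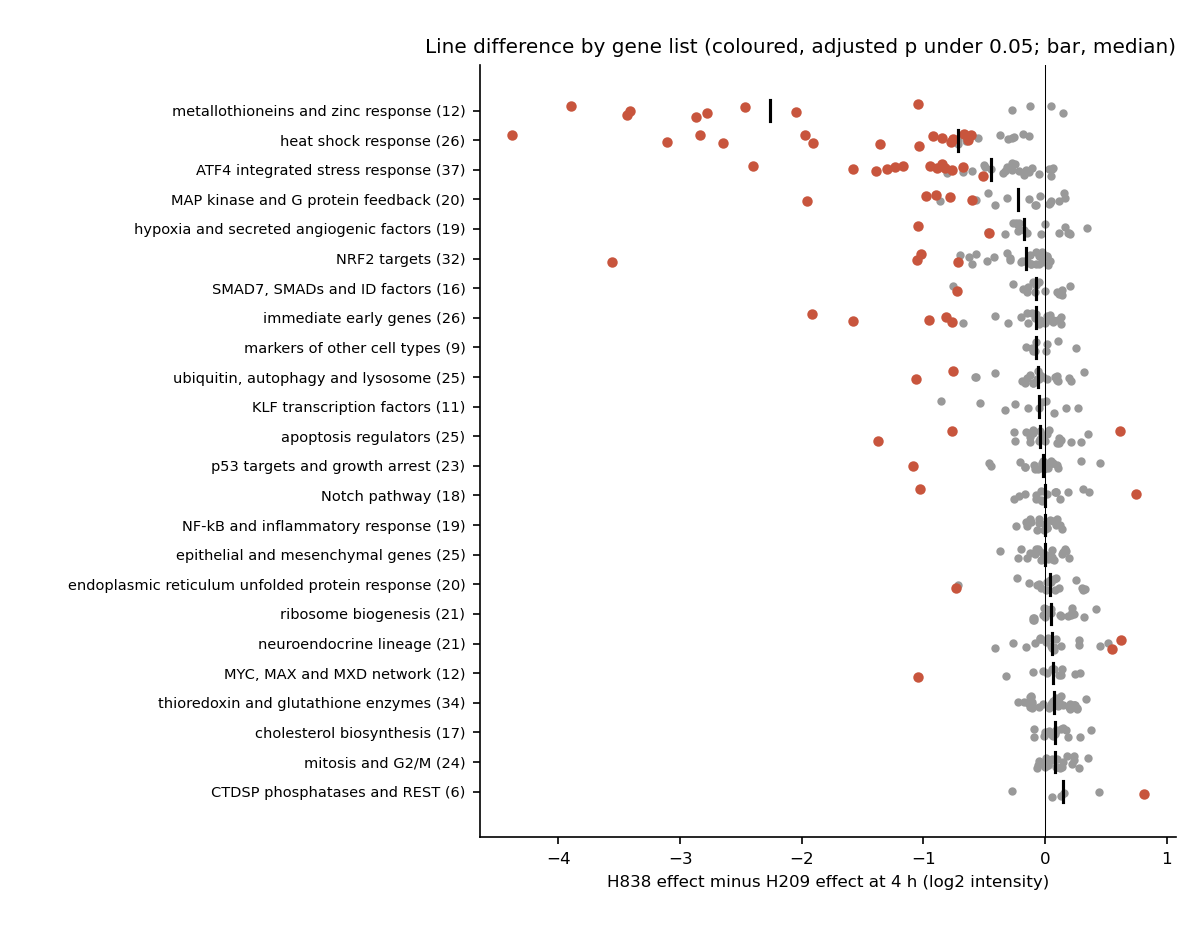
Line difference in effect at 4 h (x axis, H838 minus H209, log2 intensity) for the tested members of 24 gene lists, with the number tested in brackets, called genes coloured and the list median as a bar. The list medians furthest to the left are those of the metallothionein (-2.26), heat shock (-0.72) and ATF4 (-0.45) lists, and HMOX1 at -3.56 is the furthest of the NRF2 targets.

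The 11 genes that fell in H209 alone did so by a median of -0.66, with a median H838 effect of 0.003. CTDSP1, a small phosphatase of the RNA polymerase II tail, went from 213.2, 266.9 and 234.8 to 139.3, 137.6 and 128.7 in H209 and was at 343, 370.4 and 321.2 and then 349.6, 315.3 and 372.5 in H838. Its line difference was 0.82 ± 0.13 (adjusted p = 0.00296), with overlap in H838 and none in H209. MUC1, a membrane mucin, had effects of opposite sign, -0.44 in H209 and 0.36 in H838 (95% interval 0.15 to 0.57), and a line difference of 0.79 ± 0.14. The H838 effect of MUC1 was not called (adjusted p = 1.00). Further, dimmer probes of MUC1 gave H838 effects of 0.25 and -0.02 and line differences of 0.56 and 0.16, neither called over all probes. At 8 h the H838 effect of MUC1 was 0.03. HPS6 gave 0.77, NPTX1, a neuronal pentraxin, 0.67, APAF1, the apoptosome scaffold, 0.62, and IMP3 0.57. NPTX1 and APAF1 kept their call in 3 of the 12 fits that left out 1 array, with adjusted p up to 0.124 and 0.167. A second, dimmer probe of APAF1 gave 0.004.

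ISL1 and FOXA2 were the called genes among 21 neuroendocrine lineage genes. ISL1, a homeodomain factor of neuroendocrine cells, went from 4943, 5030 and 4755 to 3151, 3020 and 3148 in H209. It read 85.67, 88.52 and 98.54 and then 80.88, 84.74 and 86.05 in H838, around and below the table median of 93.55. The fall in H209 was -0.66 ± 0.07 (adjusted p = 2.63e-05). FOXA2, an endoderm factor, had an effect of -0.52 ± 0.07 in H209 and read 83.99 to 94.88 over the 6 H838 arrays. PHACTR3 had an effect of -0.66 ± 0.07 in H209 and read 77.74 to 85.76 in H838. These 3 genes passed the filter through H209 and had no level above the table's dim end from which to fall in H838, so their call for the line difference carries nothing beyond the fall in H209. LFNG, a glycosyltransferase that modifies Notch, gave a line difference of 0.75 ± 0.12 and read 105.5 to 127.4 in H838, only a little brighter.

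Starting levels were read from the 6 arrays at 0 h, which the 4 h fit did not use. At 0 h, 25.4% of all genes tested were higher and 30.1% were lower in H838. Of the 83 genes that rose in H209 alone, 28 were higher in H838, 35 lower and 20 not called. The median difference was -0.016, beside -0.006 over all genes. For 13 of the 83, the level in H838 at 0 h was at or above that of treated H209, among them BAG3, DUSP1, GCLM, ERRFI1, IER5 and GABARAPL1. The share of all genes at or above treated H209 was not computed, so the 13 do not mark a trait of the 83. The 0 h estimate was above 0 for 41 of the 83 and for 49.05% of all genes. For 8 of the 83, H838 was dim at 0 h, below the table median, among them INHBE and RGS16, where 19.8% of all genes were dim. HSPA6, HMOX1, PMAIP1, NFE2L2 and EGR1 had 0 h differences of 0.02, 0.03, 0.02, 0.02 and -0.08, none called. Of the 11 genes that fell, 3 started higher and 6 lower in H838, and 3 (FOXA2, ISL1 and PHACTR3) were dim there.

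Genes next to the threshold were MCL1 and TCIM inside it (adjusted p = 0.0483) and DNAJB9 and SERTAD1 outside it (adjusted p = 0.0504). Of the called genes, 25 had 28 further probes past the filter, 27 with the same sign of line difference and 8 called over all probes. Some of the same sign were near 0, as in APAF1 (0.004), LFNG (0.02) and MCL1 (-0.08), so the sign alone is a weak measure of likeness. The intensities carry background that was not removed, so folds of dim genes are understated, in each line by its own level.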

How the data were processed

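RNA of 2 lung cancer cell lines was measured on Illumina bead arrays. The deposited values are probe intensity on a linear scale from 60.03 to 21062, and the normalization by the authors is not given in the sources used here. Here intensity was floored at 75.78 (percentile 1 of the table) and taken to log2. Of 48107 probes, 30103 had 1 gene symbol, 8 had several and 17976 had none, from the platform annotation, and symbols were updated through Entrez IDs for 15056 genes. Probes above the table median (93.55) in at least 3 of the 12 arrays were kept (20543), and the brightest stood for each gene (15072 genes). Group means of the 12 arrays were fitted with limma 3.58.1 in R 4.3.3, with Benjamini-Hochberg adjustment and no block. Levels at 0 h and effects in H838 at 8 h came from separate fits of 6 arrays each. Detection calls were not used here, and precision is limited by there being 3 arrays in a group. The procedure was tested on simulated data.

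Named genes were 7 thioredoxin and NRF2 genes, the 15 most negative and the 10 most positive called line differences, up to 5 called members of each list, and genes called in H838. The lists and genes were chosen with earlier results of these data known. Same-numbered replicates deviated together in H209 for replicates 1 and 3 (r = 0.51 and 0.59) and weakly for replicate 2 (r = 0.16). In H838 r was 0.21, -0.17 and -0.12, so replicate 2 of H209 was below replicate 1 of H838. The numbers therefore pair replicates 1 and 3 of H209 by this check alone, and pairing of the other arrays was not shown. Alternatives were a replicate block, each array left out, other filters, quantile normalization, background subtraction, a linear scale, the mean of probes, a variance trend, and fits of all 39 arrays or of 1 line.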

Additional observations from a re-analysis of the deposited data

Results flagged for a closer look

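The named genes past limma's test of the line difference at 4 h are given here by that difference (H838 effect minus H209 effect, log2 intensity). Most were named because they passed it, so their number is no result, and of the 7 genes that the rule lists by symbol 2 passed, HMOX1 and GCLM. The furthest below 0 were HSPA6 -4.38, MT1M -3.89, HMOX1 -3.56, MT2A -3.44, MT1H -3.41, HSPA1A -3.11, HSPA7 -3.04, MT1X -2.87, HSPA1B -2.84, MT1G -2.78, DNAJB1 -2.65, MT1E -2.47, ATF3 -2.40 and SLC30A1 -2.05. They were followed by BAG3 -1.98, DUSP1 -1.96, FOS -1.92, STC2 -1.58, EGR1 -1.58, DDIT3 -1.39, PMAIP1 -1.38, DDIT4 -1.30 and INHBE -1.24. Smaller ones were GADD45B -1.08, ZFAND2A -1.06, GCLM -1.05, MT1F -1.04, VEGFA -1.04, MXD1 -1.04, HEY1 -1.03, GCLC -1.02, RGS16 -0.98 and ZFP36 -0.96. The least were ERRFI1 -0.89, IER5 -0.81, SPRY4 -0.78, MCL1 -0.76, GABARAPL1 -0.76, XBP1 -0.74, SMAD7 -0.72, NFE2L2 -0.72, DUSP14 -0.60 and ANKRD37 -0.46. Above 0 were CTDSP1 0.82, MUC1 0.79, HPS6 0.77, LFNG 0.75, NPTX1 0.67, PHACTR3 0.63, FOXA2 0.63, APAF1 0.62, IMP3 0.57 and ISL1 0.55.

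Vehicle arrays of H209 at later times, outside the comparison, held levels of the same genes above those of the 6 vehicle arrays of H209 at 0 h and 4 h. HMOX1 reached a log2 intensity of 12.47 in vehicle replicate 2 at 8 h and 11.01 in vehicle replicate 3 at 24 h, against at most 8.55 in the 6 arrays. MT1M reached 12.17 and 10.65 on the same arrays, against at most 6.67. The group means of treated H209 at 4 h were 12.17 for HMOX1 and 11.59 for MT1M, which the array at 8 h exceeded and the array at 24 h did not. Neither array entered the 12-array fit, and both entered the fit of all 39 arrays. Both are labelled vehicle, and whether those labels are right was not tested.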

How the results depend on the processing

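With the replicate number as a block within each line, 172 genes were called for the line difference, 456 in H209, 4 in H838 and 165 in H209 alone, and all 96 genes kept their call. The check did not show that the numbers pair the H838 samples or replicate 2 of H209. With background subtracted the counts were 62, 143, 1 and 60, with 59 of the 96 genes shared. On all 39 arrays, which include the 2 H209 vehicle arrays with high HMOX1, they were 14, 124, 0 and 14, and the part of those arrays was not tested. Only the H209 arrays gave 143 in H209, and the linear scale gave 0 in H838. The linear scale split the line difference into 17 above and 74 below, with 76 of the 96 shared. No filter, a stricter filter, quantile normalization, the mean of probes and a variance trend gave 93 to 100 genes. Leaving out 1 array gave 75 to 140 genes for the line difference, 155 to 325 in H209, 2 to 3 in H838, 72 to 136 in H209 alone, 7756 to 8081 for the 0 h difference and 0 to 4 in H838 at 8 h. The 155 came without H209 treated replicate 2, and 73 of the 96 genes were called whichever array was left out. No named gene changed sign in a call. Where counts moved, the cause was not tested.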
